A study of Drosophila melanogaster with 2 samples.

Results

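The genes described here are the 10 genes of the Drosophila melanogaster JNK kinase cascade and its AP-1 output, egr, msn, slpr, Tak1, hep, Mkk4, bsk, kay, Jra and puc, out of 13968 protein-coding genes, and the binding measured at them is that of a GFP-tagged Chameau protein. They were chosen by name for their place in the pathway. A peak was given to a gene when its summit lay inside the gene or within 2 kb of it, on Ensembl gene models for the dm6 assembly. By this rule 20 of the 4202 peaks of the conservative list lay at these genes, at 7 of the 10. Chromatin came from whole embryos aged 0 to 24 h of a transgenic line that makes a fusion of chm (chameau, a MYST family histone acetyltransferase) to eGFP, and was sonicated and precipitated with an antibody against GFP. The 2 samples are biological replicates of this 1 group, so the genes are set beside the other genes of the same embryos and no conditions are compared. Both replicates share the fusion and the antibody, the labels name a possible control experiment that was not used here, and whether the line also keeps an untagged chm copy is not given in the sources used here. A whole embryo mixes all tissues over the whole of embryonic development, so a weak signal in many cells and a strong one in few cannot be told apart.

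In the JNK pathway a chain of kinases passes a signal from the cell surface or the cytoskeleton to the nucleus. Eiger (egr), the fly tumour necrosis factor, is a ligand that can start the chain. Misshapen (msn) is a Ste20-like MAP4K, Slipper (slpr) and Tak1 are MAP3Ks, Hemipterous (hep) and Mkk4 are the MAP2Ks, and Basket (bsk) is the Jun N-terminal kinase itself. Basket phosphorylates Jun (Jra), which pairs with Fos (kay) in the transcription factor AP-1. Puckered (puc) is a phosphatase that is switched on by the pathway and turns Basket off again. In the fly embryo the cascade is best known for dorsal closure, the joining of the lateral epidermal sheets over the amnioserosa, and genetic work places chameau with the JNK pathway in that process.

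Peaks lay at members from the ligand to the phosphatase. The genes egr, msn, Mkk4, bsk, kay, Jra and puc had at least 1, while slpr, Tak1 and hep had none, so 7 of the 10 genes had a peak, against 29.0% of all protein-coding genes. In the other deposited lists the count was 9 of 10 in the list called on pooled reads, against 35.7% of all genes, 7 of 10 in the list of replicate 1, against 24.4%, and 9 of 10 in the list of replicate 2, against 29.4%. The 2 genes that the pooled list and replicate 2 added were slpr and hep. A promoter peak, with its summit within 500 bp of an annotated start, was found at egr, msn, Mkk4, bsk and kay, 5 of the 10 genes against 16.8% of all genes. Members with a promoter peak numbered 6 in the pooled list, where 21.2% of all genes had one. They numbered 4 in replicate 1, where 13.5% had one, and 4 in replicate 2, where 17.2% had one.

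**Figure D1:**
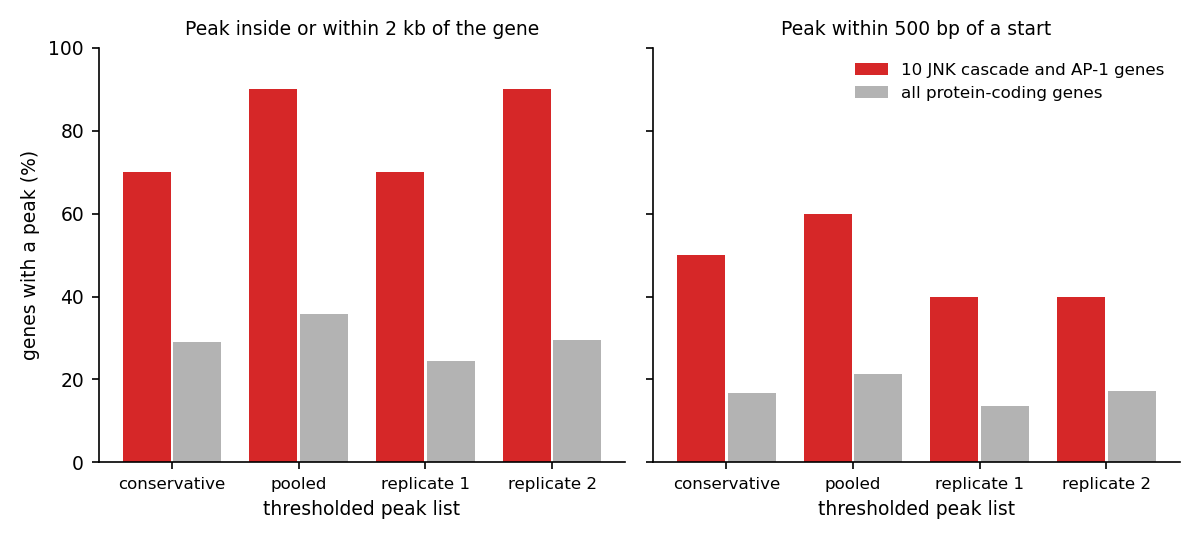
Percent of the 10 JNK cascade and AP-1 genes (red) and of all protein-coding genes (grey) with a peak inside or within 2 kb (left) or within 500 bp of a start (right), in each of the 4 thresholded lists. Each red bar is a count out of 10 genes with no error bar, since the lists are not replicates of each other, and the members with a peak number 7, 9, 7 and 9 on the left.

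Over all genes, the share with a peak was higher in longer genes. The 3 genes that span 15 kb or more, msn, kay and puc, all had a peak, against 55.2% of all genes of that length. The 3 that span under 5 kb, Mkk4, bsk and Jra, also all had one, against 23.1%. Of the 4 between 5 and 15 kb only egr had one, against 41.0%, and the 3 others are slpr, Tak1 and hep on the X chromosome. Thus the 3 members on X had no peak, where 25.3% of X genes had one, and the 7 on other arms all did, where 29.7% of genes had one. Of X genes that span 5 to 15 kb, 34.7% had a peak. In the pooled list 2 of the 3 X members had a peak, against 32.1% of X genes. The part of length and chromosome in the members' counts was not tested, and with 3 or 4 genes a class these are descriptions.

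**Figure D2:**
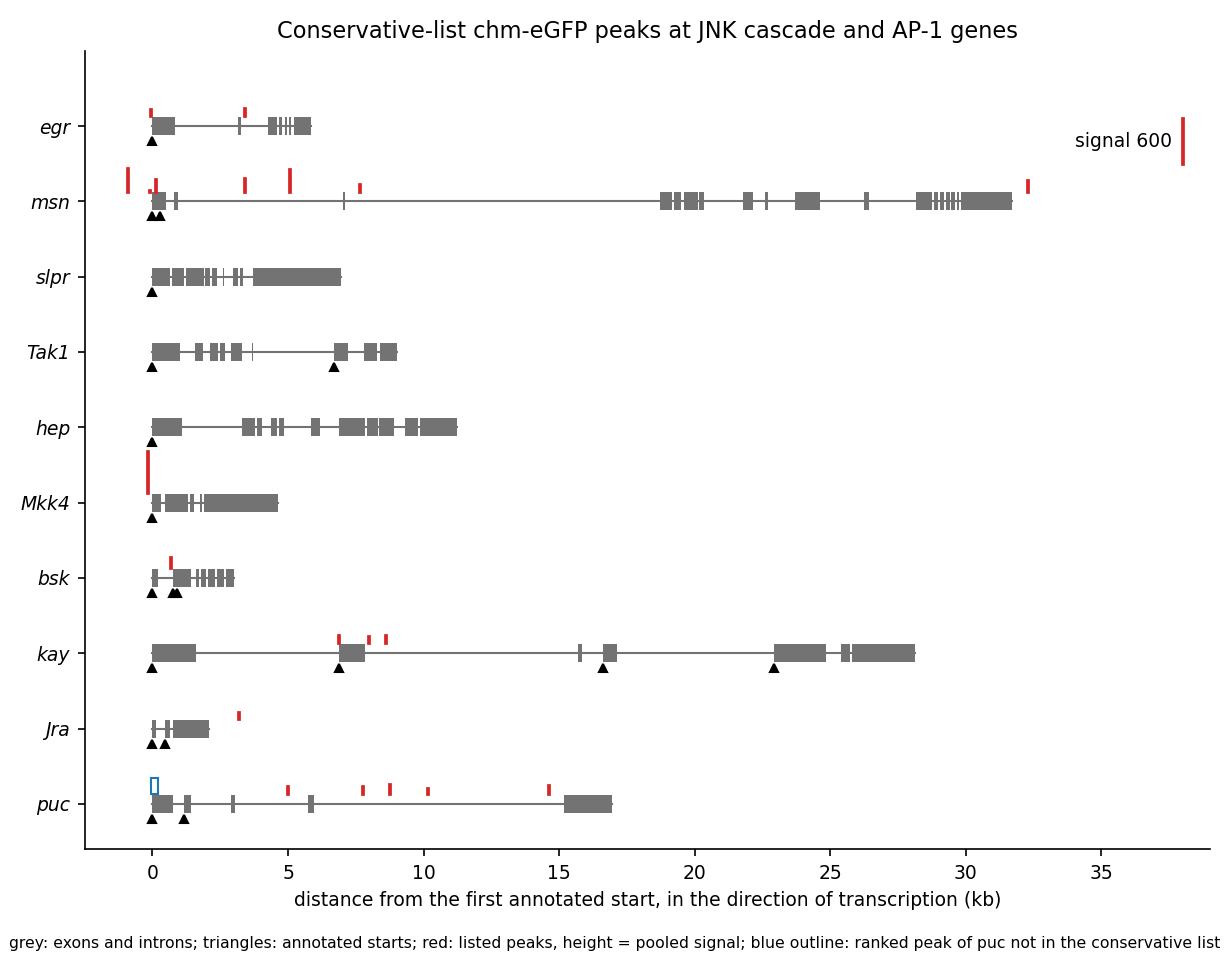
Positions of the 20 conservative-list peaks (red bars, height in proportion to pooled signal) along the 10 genes, in kb from the first annotated start in the direction of transcription, with exons as grey boxes and annotated starts as triangles. The tallest bar stands just upstream of Mkk4 at 537, slpr, Tak1 and hep have no red bar, and the blue outline at the first start of puc is a ranked peak with signal 214 that is not in the conservative list.

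The map of the loci shows the peaks mostly away from the first starts. Of the 20 summits, 13 lay in introns, 4 upstream of the gene, 2 downstream and 1 in a 5' UTR. Only 6 lay within 500 bp of a start of the member itself and 14 did not. Of all peaks of the list, 51.5% lay within 500 bp of a start of any protein-coding gene, a wider rule. By that rule the msn peaks 18 bp from the RpL8 start and 45 bp from the Spn start would count too. So would the Jra peak 21 bp from the 14-3-3zeta start, so the 6 and the 51.5% are not like measures. The members had 1.25 peaks per 10 kb of gene and window, against 0.435 over all protein-coding genes. Of the 10 genes, msn, puc and kay held 3 or more peaks, which 4.04% of all genes and 21.0% of those spanning 15 kb or more did.

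The ligand gene egr (FBgn0033483, chr2R:10078366-10084210, plus strand) had 2 peaks of middling height. Signals are given in the units of the peak caller, on a scale that no source used here defines. The stronger egr peak, chr2R:10081620-10081955, lay in an intron 3422 bp past the start and had a pooled signal of 101, with 41.1 in replicate 1 and 61.6 in replicate 2 (mean 51.3 ± 14.5, SD, n = 2). It was in the lists of both replicates. The promoter peak, with its summit 56 bp upstream of the start, had a pooled signal of 86.4, with 49.1 in replicate 1 and 34.7 in replicate 2 (mean 41.9 ± 10.2), and passed the threshold in replicate 1 alone. The replicates thus put the egr peaks in opposite orders, replicate 1 with the promoter higher and replicate 2 with the intron higher, and the SDs are wider than the gap between their means.

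The MAP4K gene msn (FBgn0010909, chr3L:2554847-2586540, minus strand) had 7 peaks, the most of the 10 genes. At least 7 were held by 51 of all protein-coding genes. The tallest, chr3L:2587361-2587537, had a pooled signal of 306, with 151 in replicate 1 and 161 in replicate 2 (mean 156 ± 6.59, SD, n = 2), and was the peak of rank 197 in the list. It is not a peak of msn alone: its summit lay 898 bp upstream of the msn start but 18 bp upstream of the start of RpL8, a cytosolic ribosomal protein gene on the opposite strand. The second, chr3L:2581387-2581560, lay inside a long intron, 5078 bp past the first start, with no other start near it. There the pooled signal was 291, with 158 in replicate 1 and 136 in replicate 2 (mean 147 ± 15.7), at rank 223. Another peak in the same intron, 3399 bp past the start, had a pooled signal of 168, with nearly equal values of 83.9 in replicate 1 and 83.1 in replicate 2.

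At the msn start itself the list holds 2 overlapping entries. The 1 in the 5' UTR, 114 bp past the start, had a pooled signal of 149, with 78.6 in replicate 1 and 64.6 in replicate 2. The entry 85 bp upstream had a pooled signal of only 14.0, at rank 4099, and overlaps the same replicate peaks, so the replicates do not measure it apart from its neighbour. Of all conservative peaks, 391 (9.31%) share their replicate peaks in this way. The remaining msn peaks were 1 with a pooled signal of 135 past the end of the gene, 45 bp inside the start of Spn (Spinophilin, a phosphatase-binding scaffold protein), and 1 of 92.1 in an intron, with 60.4 in replicate 1 and 29.4 in replicate 2, in the list of replicate 1 alone. The intronic peak with signal 291 is printed here as the strongest site within a member that has no neighbour's start beside it. It is printed as the 201 bases around its summit, chr3L:2581362-2581562, plus strand, from the RefSeq release 6 genome, and none of the motifs searched was found in it.
msn intron: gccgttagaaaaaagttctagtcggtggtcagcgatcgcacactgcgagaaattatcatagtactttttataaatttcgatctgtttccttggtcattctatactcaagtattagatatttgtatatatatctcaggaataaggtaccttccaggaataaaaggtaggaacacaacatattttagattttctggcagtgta

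The MAP3K genes slpr and Tak1 had no peak in the conservative list. At slpr (FBgn0030018, chrX:8170229-8177185, minus strand) the absence was narrow. A site 1439 bp upstream of its start had a signal of 75.6 in the pooled list. In the list that ranks peaks matched between the replicates, the same site had an irreproducible discovery rate (IDR) of 0.0107. IDR is low where a site ranks consistently high in the peak sets compared. The value was just past the highest in the conservative list, 0.00999. Replicate 2 had it in its thresholded list with a signal of 33.0, while replicate 1 had 29.5 in its ranked list at an IDR of 0.254. The signals of the replicates lie close together at slpr, and replicate 2 alone has the site in its thresholded list.

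Tak1 (FBgn0026323, chrX:20515908-20524928, minus strand), whose product acts in both JNK and immune signalling, was the 1 member in none of the 4 thresholded lists. Its best site in the pooled ranking lay 257 bp upstream of the start, with a signal of 40.4 and an IDR of 0.0142. In the ranking of replicate 1 the highest Tak1 signal was 18.4, at 967 bp upstream, and in that of replicate 2 it was 23.6, at 151 bp past the start. The highest sites thus lay in different places. The ranking matched between the replicates paired the site of replicate 1 with a signal of only 7.15, at an IDR of 0.486, far past the list's limit.

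The MAP2K pair, which both phosphorylate Basket, differed widely in signal. The gene hep (FBgn0010303, chrX:13079205-13090434, minus strand) had no conservative peak. It had 2 in the pooled list, with signals of 77.8 in an intron 1728 bp past the start and 63.2 in a coding exon 836 bp past it. Replicate 2 had a peak in the same coding exon with a signal of 34.5, whereas replicate 1 had 0 peaks at hep even in its full ranking. In that full ranking 81.3% of X genes and 85.0% of genes on other arms had at least 1 peak. The ranking matched between the replicates also had 0 peaks at hep, so its values come from replicate 2 and the pooled reads.

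Mkk4 (FBgn0024326, chr3R:8646172-8650796, minus strand) had the strongest peak of the 10 genes. This peak, chr3R:8650866-8651077, had a pooled signal of 537, the peak of rank 50 in the list, and 98.8% of conservative peaks were weaker. Its signal was 233 in replicate 1 and 299 in replicate 2 (mean 266 ± 47.2, SD, n = 2), above the other member peaks in both. The summit lay 175 bp upstream of the Mkk4 start and 113 bp upstream of SLIRP2, an RNA-binding protein gene that is transcribed the other way, so the peak sits between a divergent gene pair and cannot be given to 1 of them. Of the 2158 promoter peaks compared, the nearest to it by its pair of log2 replicate signals was that of CG1635, with a pooled signal of 571, 251 in replicate 1 and 313 in replicate 2. The next were those of Alg3, an enzyme of glycan assembly, with a pooled signal of 501, and of the gene pair Lamtor3 and fws, with 471. The interval is printed because it carries the highest signal among the 10 genes: 201 bases around the summit, chr3R:8650871-8651071, plus strand, RefSeq release 6. It is poor in G and C, at 31.3%, and held none of the motifs searched.
Mkk4 and SLIRP2 promoter: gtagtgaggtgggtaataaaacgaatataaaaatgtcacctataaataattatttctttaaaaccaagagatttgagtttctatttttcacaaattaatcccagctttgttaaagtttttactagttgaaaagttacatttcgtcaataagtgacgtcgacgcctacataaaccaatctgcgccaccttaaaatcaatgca

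The JNK gene bsk (FBgn0000229, chr2L:10247502-10250501, minus strand) had a single peak, chr2L:10249659-10249994. Its pooled signal was 130, at rank 1144, with 81.4 in replicate 1 and 52.4 in replicate 2 (mean 66.9 ± 20.5, SD, n = 2), and it was in the lists of both replicates. The summit lay in an intron 674 bp past the first start but 85 bp before the start of the transcript bsk-RF. A further bsk start, 901 bp past the first, also lies within 500 bp of the summit. The peak thus counts as a promoter peak only through these internal starts. The divergent gene CG31717 starts 910 bp away. The bases around this summit, chr2L:10249743-10249927, plus strand, RefSeq release 6, are printed because they show the binding nearest to an own start of the kinase that names the pathway. The stretch stops at the start of bsk-RF, since transcribed UTR bases were left out.
bsk internal promoter: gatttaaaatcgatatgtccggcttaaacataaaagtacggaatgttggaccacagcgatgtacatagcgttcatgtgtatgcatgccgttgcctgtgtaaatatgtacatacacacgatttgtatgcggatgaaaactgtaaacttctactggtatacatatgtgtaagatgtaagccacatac

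The Fos gene kay (FBgn0001297, chr3R:29765995-29794113, plus strand) makes transcripts from 4 starts, and its 3 conservative peaks gathered around the second. Nearest to that start of kay-RA and kay-RG was a peak with its summit 12 bp upstream and a pooled signal of 92.3, with 38.5 in replicate 1 and 47.9 in replicate 2, which passed the threshold in replicate 2 alone. A peak 1088 bp past it had a pooled signal of 82.2, with 51.5 in replicate 1 and 29.1 in replicate 2, and passed in replicate 1 alone. The highest, 1722 bp past it, had a pooled signal of 96.9, with 45.7 in replicate 1 and 50.7 in replicate 2 (mean 48.2 ± 3.49, SD, n = 2), and was the kay peak in both replicate lists. The pooled list added a stronger peak with a signal of 107 near the third start, that of kay-RB, 32 bp past it. Replicate 2 had this site at 55.9, and replicate 1 did not have it in its thresholded list. The first kay start had no peak within 500 bp in any thresholded list.

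The highest kay peak lay over a long run of alternating G and A. Its 201 bases, chr3R:29774514-29774714, plus strand, RefSeq release 6, are shown with every match to GAGAG or its reverse complement CTCTC in capitals. GAGAG is the core of the sites bound by the GAGA factor, a chromatin protein of active promoters and Polycomb elements in the fly. Overlapping matches run through the summit itself, with their centres from 11 bp before it to 7 bp after it.
kay intron: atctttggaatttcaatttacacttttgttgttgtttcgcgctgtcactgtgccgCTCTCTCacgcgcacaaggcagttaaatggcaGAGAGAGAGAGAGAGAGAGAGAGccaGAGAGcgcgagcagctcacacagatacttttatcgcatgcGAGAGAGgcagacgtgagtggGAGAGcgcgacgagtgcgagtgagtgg

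The Jun gene Jra (FBgn0001291, chr2R:10096480-10098556, plus strand), the partner of kay in AP-1, is the shortest of the 10 genes, and its only conservative peak was not at its own start. The peak, chr2R:10099488-10099823, lay past the gene's end, 3176 bp from the first start. It had a pooled signal of 81.2, with 64.5 in replicate 1 and 29.1 in replicate 2 (mean 46.8 ± 25.0, SD, n = 2), the largest ratio between the replicates among the 20 peaks. Its summit was 21 bp from the start of 14-3-3zeta, a phosphoserine-binding adaptor of Ras signalling, and 66 bp from that of RpLP0-like, a ribosome assembly gene. At Jra's own start the pooled list had a weaker peak with a signal of 56.5, 170 bp past the start of Jra-RA and Jra-RC. When each peak was given to the nearest protein-coding gene alone, Jra and Mkk4 lost theirs to neighbours and egr, msn, bsk, kay and puc kept one.

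The phosphatase gene puc (FBgn0243512, chr3R:8105332-8122294, plus strand), which reports JNK activity and limits it, had 5 peaks. At least 5 were held by 143 of all protein-coding genes. All 5 puc peaks lay in its introns. From the first start onward they stood 4986 bp along with a pooled signal of 93.0, 7779 bp along with 91.7, 8773 bp along with 120, 10152 bp along with 72.8 and 14638 bp along with 107. These heights are close to the median of the whole list. Their signals ran from 27.9 to 59.2 in replicate 1 and from 41.1 to 62.6 in replicate 2, and 4 of the 5 were in both replicate lists. The exception was the weakest, with 27.9 in replicate 1 and 47.0 in replicate 2, which passed in replicate 2 alone.

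By the conservative list puc has no promoter peak, and that rests on a single entry. The ranking that the list was drawn from holds a peak at chr3R:8105244-8105579, with its summit in the 5' UTR 80 bp past the start of puc-RA. Its pooled signal was 214, above all 5 listed puc peaks, with 118 in replicate 1 and 106 in replicate 2 (mean 112 ± 8.39, SD, n = 2), and its IDR was 3.00e-05, far below the highest value in the list. It was in none of the 4 thresholded lists. Of 4397 ranked peaks with an IDR as low as the list allows, 195 were missing from the list, for a reason not given in the sources used here. With all 4397 counted, the members with a promoter peak became 6 of 10, against 17.3% of all genes, and those with any peak stayed 7 of 10, against 29.5%.

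Of the listed puc peaks the 2 strongest are printed, as 201 bases each on the plus strand from RefSeq release 6, chr3R:8114005-8114205 and chr3R:8119870-8120070. Capitals mark GAGAG or CTCTC, and in the second also the match TGACTCA at chr3R:8119991-8119997, centred 24 bp past the summit. TGACTCA is the site that Fos and Jun dimers bind, in the form TGANTCA that was searched on both strands and that is the same read from either. The first had a signal of 53.9 in replicate 1 and 62.6 in replicate 2 (mean 58.3 ± 6.20, SD, n = 2). The second had 57.6 in replicate 1 and 47.8 in replicate 2 (mean 52.7 ± 6.93), so these peaks do not differ beyond the spread of the replicates.
puc intron, peak with signal 120: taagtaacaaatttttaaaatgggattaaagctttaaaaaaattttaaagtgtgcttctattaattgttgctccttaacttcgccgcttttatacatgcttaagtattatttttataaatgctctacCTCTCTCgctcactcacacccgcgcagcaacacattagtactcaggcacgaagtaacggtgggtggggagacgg
puc intron, peak with signal 107: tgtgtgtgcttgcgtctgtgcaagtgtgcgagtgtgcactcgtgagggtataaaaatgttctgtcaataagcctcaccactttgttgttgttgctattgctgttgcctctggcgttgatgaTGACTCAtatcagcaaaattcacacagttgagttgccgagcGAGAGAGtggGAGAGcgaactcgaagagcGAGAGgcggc

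Across the 20 member peaks the AP-1 form TGANTCA within 100 bp of the summit was found in 1, the puc peak just shown, against 4.24% of all peaks on the main arms. GAGAG was found in 4, of which kay and puc had 2 each, against 33.1% of all peaks. The E-box CACGTG, a palindrome, was found in 3, of which egr had 1 and msn 2, against 2.67%. Of the msn matches, 1 was in the peak beside the RpL8 start, which is not a peak of msn alone. Neither the DRE motif TATCGATA, found in 2.98% of all peaks, nor the Zelda motif CAGGTA, found in 4.53%, nor the CRE TGACGTCA, found in 0.381%, was in any member peak. GAGAG overlaps itself in runs, so a peak was counted once however many copies it held, and no other pair of these motifs overlapped in a member peak. A match is a run of letters and not a measured site, and no match says only that these letters are not in that window. Member peaks had a median GC content of 39.1%, from 31.3% to 56.7%, against 42.8% over all peaks.

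**Figure D3:**
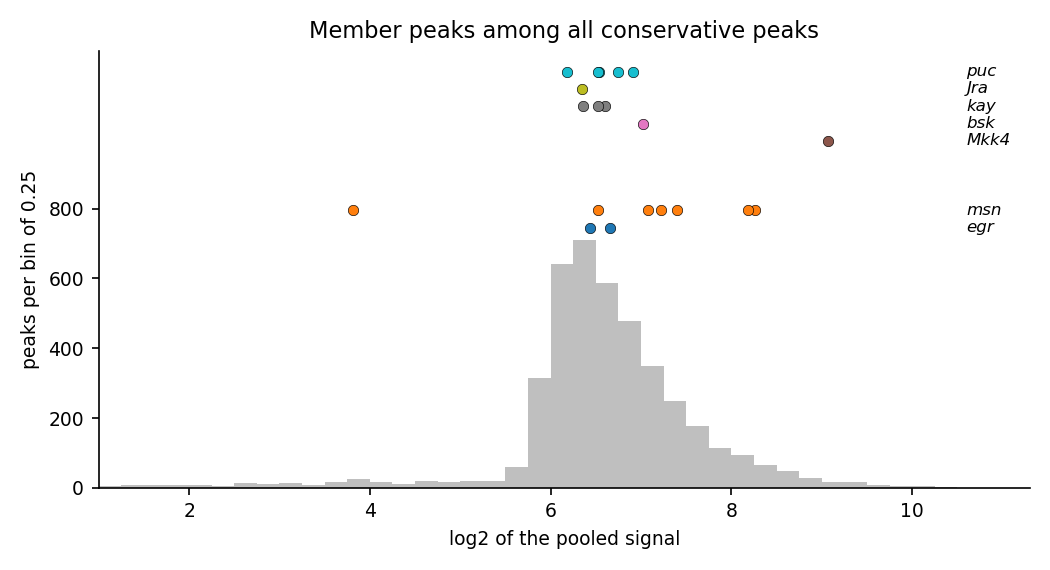
Log2 pooled signal of the member peaks (coloured points, 1 row per gene) above the histogram of all conservative peaks (grey, peaks per bin of 0.25). Most member peaks sit over the body of the histogram, Mkk4 and the strongest msn peaks lie in its right tail at 537, 306 and 291, and the msn entry of 14.0 lies far to the left.

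Most member peaks lay near the middle of the list in height, and Mkk4 and msn had the high ones. The median pooled signal of the 20 was 98.9, against 94.1 over all peaks, and 11 of the 20 were above the median of all. They ran from 14.0 to 537, where all peaks ran from 2.05 to 1374, and leaving aside the weak msn entry the lowest was the puc peak of 72.8. The egr, kay, Jra and puc peaks, whose genes encode the ligand, both AP-1 subunits and the phosphatase, all lay between 72.8 and 120. The 3 highest peaks were those at Mkk4, at the RpL8 side of msn and in the msn intron.

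**Figure D4:**
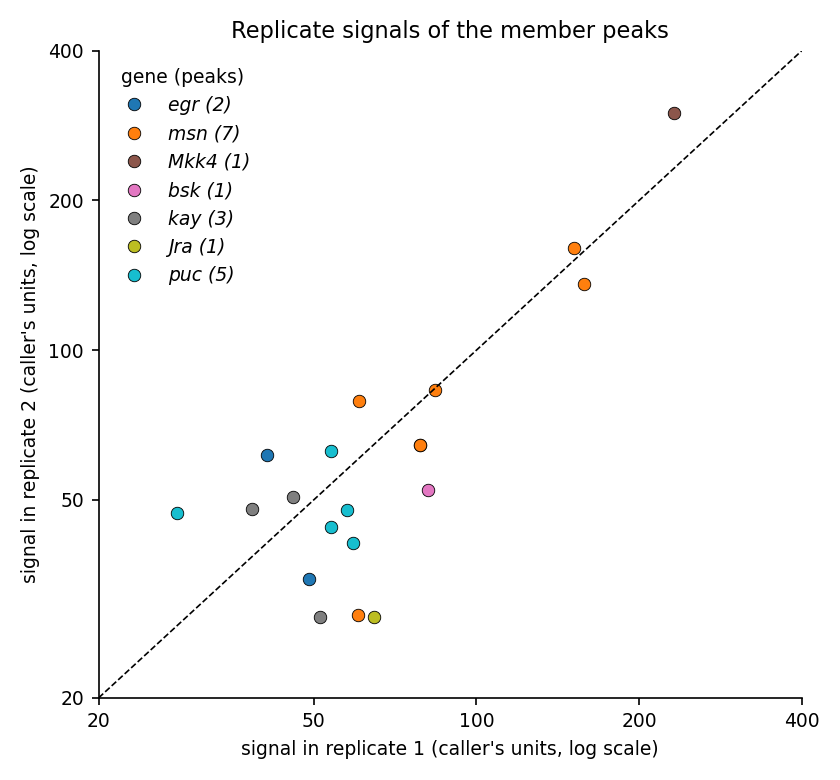
Signal of each member peak in replicate 1 (x axis) and replicate 2 (y axis), both on log scales in the caller's units, with equal values on the dashed line and genes in colours. Mkk4 and the 2 strongest msn peaks lie near the line at the upper right, the weaker peaks spread to both sides of it, and 2 msn entries share the point at 78.6 and 64.6.

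Replicate support was high at these genes for the list they come from. Of the 20 peaks, 14 (70%) had their summit in thresholded peaks of both replicates, against 45.7% of all conservative peaks. A further 3 were in replicate 1 alone, 3 in replicate 2 alone and 0 in neither, where 20.2% of all conservative peaks were in neither. Egr, msn, Mkk4, bsk, kay, Jra and puc each kept at least 1 peak seen in both replicates. Replicate 1 gave the higher signal at 12 of the 20 and replicate 2 at 8, and over all peaks replicate 1 was higher at 57.2%. The log2 ratio of replicate 2 to replicate 1 had a median of -0.24 at the members, from -1.15 at Jra to 0.75 at the weakest puc peak, against a median of -0.11 over all peaks. With 2 replicates the SDs describe these samples only. The lists give no read totals, so the depth behind a signal is unknown, and a difference in scale between the replicates is part of each SD.

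Peaks were also counted at 40 other genes of JNK and neighbouring MAPK signalling. Of these, 20 had a peak within 2 kb and 16 a promoter peak, beside the 29.0% and 16.8% of all genes given above. By role, a peak was found at 3 of 5 receptors and adaptors, 5 of 7 small GTPases and tyrosine kinases, 3 of 6 further MAP3Ks and scaffolds, 2 of 3 negative regulators, 2 of 7 members of other MAPK pathways and 5 of 12 known targets. The 2 in the other MAPK pathways were p38a and p38c, which share 1 peak. By chromosome, 2 of the 10 on X had a peak, near the 25.3% of all X genes, and 18 of the 30 on other arms did, where 29.7% of all genes had one.

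The strongest of these peaks was 232 bp upstream of Mtl, a Rac-like GTPase that acts above the kinases, with a pooled signal of 653, 323 in replicate 1 and 330 in replicate 2 (mean 327 ± 4.93, SD, n = 2). That is higher than Mkk4 in both replicates, and the start of CG5611 also lies within 500 bp. The repressor gene aop had 344, with 238 in replicate 1 and 105 in replicate 2, so its replicates lay far apart. The MAP3K gene Mekk1 had 265, with 119 in replicate 1 and 144 in replicate 2. Atf3, a bZIP partner of Jun that lies on X, had 233, with 104 in replicate 1 and 144 in replicate 2. The scaffold gene POSH had 198, with 95.1 in replicate 1 and 106 in replicate 2. Among the genes without a peak were grnd, a receptor of Eiger, Traf6, an adaptor, Cdc42, a small GTPase, and Src42A, a tyrosine kinase. The other Eiger receptor gene, wgn on X, named after its values were seen, had a promoter peak with a pooled signal of 138, with 69.3 in replicate 1 and 67.1 in replicate 2. The chm gene, source of the tagged protein, had 4 peaks of its own with pooled signals from 94.2 to 132.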

How the data were processed

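Peak lists of chm-eGFP embryos were used as deposited, on the dm6 assembly per the labels. Neither aligner nor caller is named in the sources used here. The deposited signal column holds the caller's value per peak, and the deposited −log10 columns hold q-values and the IDR, from which IDR values were computed. The authors' thresholded lists have a scaled IDR score of at least 830. Pooled signal is the signal column of the conservative list, which equals the pooled list's for the 19 member peaks in both. Signals named for a replicate are those of the strongest overlapping peak in that replicate's own ranked list. Depth is unknown. Summits were placed on Ensembl release 115 models (BDGP6.54) with Python 3.11.15 and pandas 2.3.3, and sequences and motif matches came from RefSeq release 6, in 201 bases around each summit. The gene assignment was tested on simulated data. No test between groups or of a gene list was run. The members, lists and motifs were chosen with earlier results of these data known, and the splits by chromosome and peak number and the count of ranked but unlisted peaks were added after seeing the data. Named genes were the members, neighbours sharing their peaks, the 5 other pathway genes with the strongest peak and the first 4 without one in list order, and the 3 promoters nearest to Mkk4's signals.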

Additional observations from a re-analysis of the deposited data

How the results depend on the processing

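The members with a peak within 2 kb numbered 7, and from 5 to 9 under the alternatives tried: with 1 replicate left out they were 7 to 9, with a window of 0 bp or with each peak given to its nearest gene alone 5, and with a window of 5000 bp 8, which added Tak1, while 5614 of all 13968 protein-coding genes had a peak in that window. Keeping the stronger 50% of conservative peaks left 11 peaks at members instead of 20. It left 3 members with a promoter peak instead of 5, a count not taken over all genes under this setting. Of all protein-coding genes, 2672 had a peak within 2 kb instead of 4050. Over all genes the count was 2532 with peaks in both replicates, 1660 with a window of 0 bp and 2492 with the nearest gene alone, and the other pathway genes with a peak fell to 13 of 40 with a window of 0 bp. These alternatives by construction use fewer peaks, a smaller window or 1 gene per peak. The median signal of member peaks, 98.9 in the pooled values, was 59.8 in the first and 51.5 in the second replicate column of the ranked list and 120 over the strongest peak of each member. Leaving out the second msn entry gave 19 peaks with a median of 101, an alternative chosen after seeing the data, as was counting ranked peaks that the list lacks. The strongest signal per member, read from the other lists, moved by more than the replicate SD in 27 cases and by less in 15. Most moves set a pooled signal beside that of 1 replicate, which is on a lower scale. The median signal was 57.9 in the list of replicate 1 and 50.6 in that of replicate 2, against 94.1 in the conservative list. Most cases without a move read the same pooled value again, so this tally does not measure stability. The AP-1 count was 1 under each of the windows and forms tried. No paired analysis was possible because there is only 1 group. Depth is unknown, so no limit of detection can be given.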
